A study of Sorghum bicolor with 8 samples.

Results

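Steadily expressed genes are described here across all tissues of a sorghum callus series. A gene was a member if it had at least 30 FPKM in each of 8 libraries and its highest value was at most 1.6 times its lowest. FPKM counts the sequenced fragments of a transcript, divided by its length in kilobases and by the size of the library. The values were used as the authors deposited them, with no rescaling. Of 34129 genes, 159 (0.466%) met the rule. A further 1416 genes also had at least 30 FPKM in every library but a larger ratio, and are called the other abundant genes. The members thus made up 10.1% of 1575 abundant genes. The rule used the FPKM of every library, so the members' levels are given as a description, and their small spread is not a finding.

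The tissues were Leaf, Callus III, Callus II and Callus I of the wild-type line Hiro-1 (Sorghum bicolor), with 2 libraries each. Callus is unorganised tissue grown in culture, here from immature embryos of 1 to 2 mm taken 13 to 15 days after flowering. The 3 callus types were separated after 3 weeks of dark culture at 25 °C on a medium that induces callus, and were subcultured for 20 more days. The leaves had regenerated from Callus II alone, on differentiation medium lit at 2000 lx in a 16 h day and 8 h night, so tissue, light and medium cannot be told apart. The titles and tissue labels of both Leaf libraries name leaf, while their phenotype label names Callus II, the tissue they were regenerated from. The labels call the paired libraries biological replicates without saying whether they came from separate cultures. No source used here pairs the gene identifiers with names, so the labelled tissues could not be checked against marker genes, and the members are given by identifier with no function.

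Steadily expressed genes are often called housekeeping genes, a term for genes whose products most living cells need, such as those for protein synthesis, protein turnover and membrane traffic. Plant laboratories use such genes as internal references in quantitative PCR, where the transcript of interest is measured against one that is taken to stay level. FPKM is a relative measure: it gives a transcript's share of the sequenced pool, per length. By this definition a steady FPKM is a steady share of the pool and not a steady number of molecules per cell. Whether the deposited values were also scaled between libraries is not known here. In bulk tissue, fewer cells of a type and less RNA per cell cannot be told apart.

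The values summed to between 595109 FPKM (Leaf replicate 1) and 737291 FPKM (Callus III replicate 1) per library. Read totals are not given, so absolute depth is unknown. The commonest step between low values (both under 0.2 FPKM) put the depth relative to Callus I replicate 1 between 0.965 and 1.07 in the other callus libraries and at 1.27 and 1.63 in Leaf. That step held only 1.62% to 7.33% of the low pairs.

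**Figure D1:**
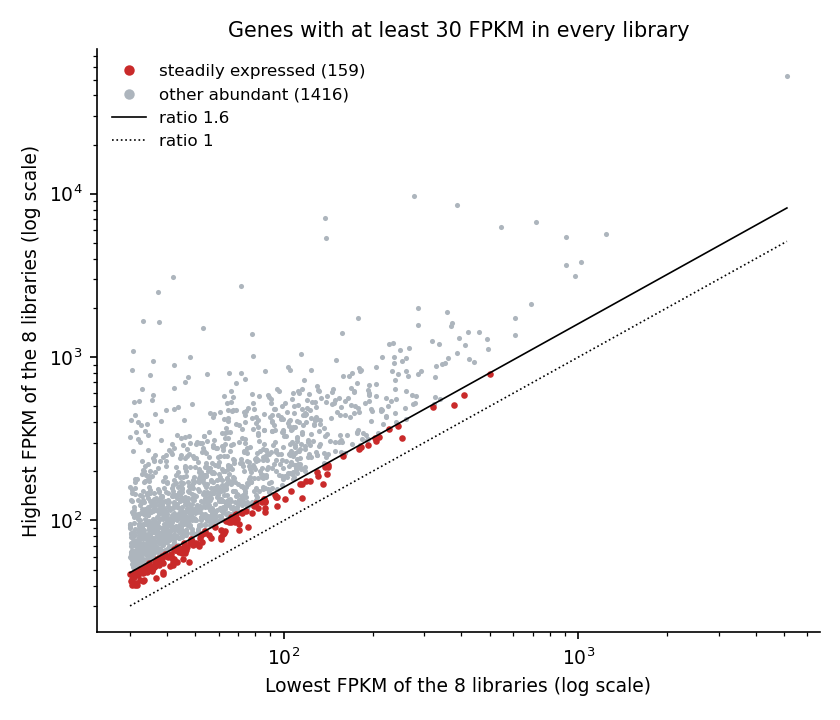
The 1575 genes with at least 30 FPKM in every library, with each gene's lowest FPKM over the 8 libraries on the horizontal axis and its highest on the vertical axis, both logarithmic. The 159 steadily expressed genes lie between the dotted line (ratio 1) and the solid line (ratio 1.6) from the left edge up to a lowest value of 502 FPKM, and the 1416 other abundant genes lie above the solid line.

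The steadiest gene was Sobic.003G428200.v3.2 (chromosome 3, 73164636 to 73170063), with a highest value 1.17 times its lowest. It stood at 55.5 and 55.7 FPKM in Leaf and 52.1 and 50.4 in Callus III, with Callus II at 54.2 and 48.1 next to Callus I at 50.4 and 47.6. Both Leaf libraries were the highest, and the whole range over tissues was 47.6 to 55.7 FPKM. Sobic.010G042800.v3.2 (chromosome 10, 3304658 to 3307530) followed with a ratio of 1.2, at 134 and 119 FPKM in Leaf and 129 and 120.1 in Callus III, with Callus II at 135 and 123 next to Callus I at 115 and 138. Its lowest and its highest library were both Callus I, so the spread between replicates of 1 tissue was as wide as the spread over all tissues. Sobic.002G428200.v3.2 (chromosome 2, 77455037 to 77459989) had a ratio of 1.2004, at 88.5 and 83.2 FPKM in Leaf and 77 and 83.9 in Callus III, with Callus II at 90.8 and 85.1 next to Callus I at 80.2 and 75.7. Callus II replicate 1 was the highest library and Callus I replicate 2 the lowest.

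Sobic.008G087900.v3.2 (chromosome 8, 18495566 to 18512767), one of the longest member loci at 17202 bp, stood at 46.7 and 38.7 FPKM in Leaf and 43.3 and 45.4 in Callus III, with Callus II at 46.9 and 44.3 next to Callus I at 44.4 and 42.3. Here the 2 Leaf libraries lay almost as far apart as the whole range, and all 6 callus libraries fell between 42.3 and 46.9 FPKM. Sobic.001G196700.v3.2 (chromosome 1, 17739699 to 17745251) showed 42.3 and 39.4 FPKM in Leaf and 39.3 and 40.7 in Callus III, with Callus II at 37.7 and 36.7 next to Callus I at 40.5 and 44.7. Callus II was the lowest tissue in both libraries. Sobic.007G136800.v3.2 (chromosome 7, 56430217 to 56437440) showed 44.6 and 42.1 FPKM in Leaf and 39.8 and 41.7 in Callus III, with Callus II at 42.7 and 46.9 next to Callus I at 38.9 and 48.2. As for the gene on chromosome 10, the lowest and the highest value were both from Callus I.

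Among the rest of the steadiest 10, Sobic.002G309700.v3.2 (chromosome 2, 68384784 to 68387555) separated the tissues in the deposited values although its ratio was only 1.24. It stood at 140.1 and 143 FPKM in Leaf and 163 and 168 in Callus III, with Callus II at 158 and 160.4 next to Callus I at 136 and 138. With the deposited values, Callus III and Callus II lay above Leaf and Callus I with no overlap. Its adjusted p in the limma moderated F test given below was 0.069, so it was not called. Sobic.001G173300.v3.2 (chromosome 1, 14551494 to 14554066) was the most abundant of these 10, at 252 and 282 FPKM in Leaf and 268 and 274 in Callus III, with Callus II at 302 and 309.6 next to Callus I at 313 and 319.9. With the deposited values, both Callus I libraries were above both Callus II libraries, and these above Callus III. The same limma F test did not call this gene either (adjusted p 0.184). Sobic.009G067000.v3.2 (chromosome 9, 7341758 to 7347966) was lowest in Callus III, at 77 and 73.9 FPKM in Leaf and 61.1 and 64.1 in Callus III, with Callus II at 75.7 and 69.3 next to Callus I at 77.5 and 72.9. Sobic.007G126200.v3.2 (chromosome 7, 53870981 to 53873728) ranged from 70.4 FPKM in Callus II replicate 1 to 87.6 FPKM in Callus I replicate 2. Orders of tissues given for single genes are those of the deposited values. They were not tested, and can change with the scalings described below.

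**Figure D2:**
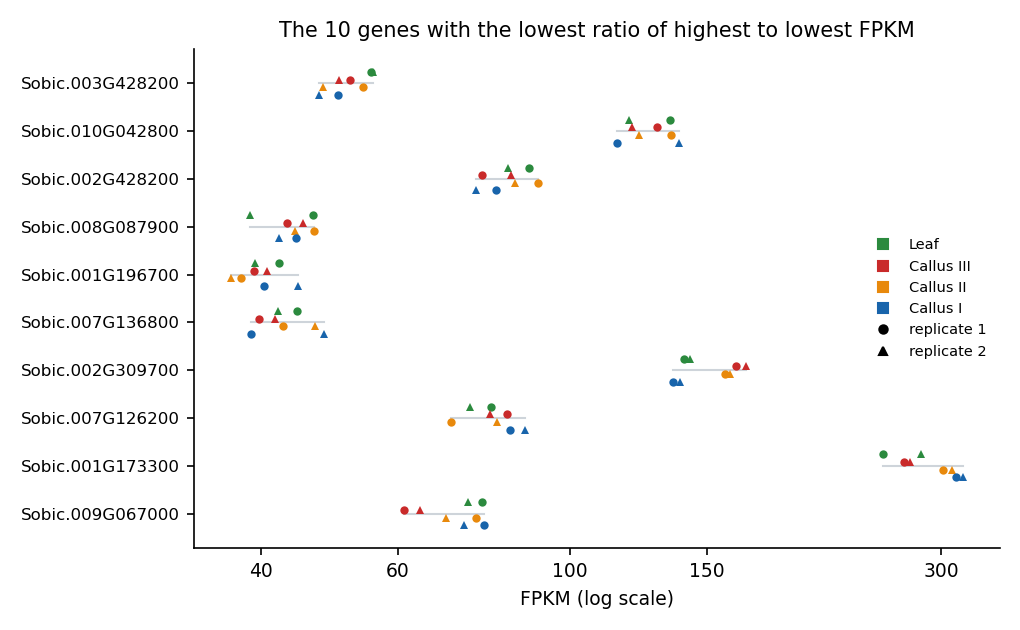
FPKM (logarithmic axis) of the 10 members with the lowest ratio, 1 row per gene, with the steadiest at the top; colours mark Leaf, Callus III, Callus II and Callus I from top to bottom within a row, circles replicate 1 and triangles replicate 2, and the grey line the range. The ranges are narrow throughout, at ratios of 1.17 to 1.27, and the levels run from 36.7 to 319.9 FPKM.

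Steadiness spanned a wide range of abundance. The median FPKM over the libraries was between 34.2 and 574 for the members, with a middle value of 60.8 and quartiles of 45.0 and 97.6. The other abundant genes had a middle value of 82.5 and reached 20933. For the same lowest value, a larger ratio allows a higher median, so nothing is read from this gap. Of the members, 39 reached a median of 100 FPKM and 14 reached 200 FPKM. The most abundant member was Sobic.008G033200.v3.2 (chromosome 8, 3016751 to 3020814), at 511 and 502 FPKM in Leaf and 613 and 521 in Callus III, with Callus II at 721 and 698 next to Callus I at 784 and 535. Leaf was the lowest tissue, and the Callus I libraries were the farthest apart. Sobic.006G083500.v3.2 (chromosome 6, 45235403 to 45237041) showed 489.7 and 471 FPKM in Leaf and 410.0 and 499 in Callus III, with Callus II at 577 and 579 next to Callus I at 567 and 589. Callus III replicate 1 was its lowest library. Sobic.009G033600.v3.2 (chromosome 9, 3045194 to 3048685) had a ratio of 1.34, the lowest among the 3 most abundant, at 419 and 473 FPKM in Leaf and 396 and 377 in Callus III, with Callus II at 507 and 472 next to Callus I at 448 and 384.

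Sobic.001G034700.v3.2 (chromosome 1, 2632380 to 2634538) was near level in Leaf, Callus III and Callus II and higher in Callus I, at 336 and 357 FPKM in Leaf and 346 and 334 in Callus III, with Callus II at 321 and 329 next to Callus I at 495 and 464. Sobic.007G216300.v3.2 (chromosome 7, 64471745 to 64475700) split the tissues into pairs, at 324 and 319 FPKM in Leaf and 222 and 224 in Callus III, with Callus II at 210.1 and 214 next to Callus I at 302 and 283. Leaf and Callus I were high and Callus III and Callus II low, with no overlap. Sobic.006G048700.v3.2 (chromosome 6, 34559165 to 34562646) had both its lowest and its highest library in Callus I. It stood at 339 and 317 FPKM in Leaf and 299.5 and 249.8 in Callus III, with Callus II at 288 and 281 next to Callus I at 244 and 381. The highest and lowest library were both of Callus I in 4 members, and in no other tissue did this occur. No matching count was made for the other abundant genes, whose replicates also lay farthest apart in Callus I (median ratio 1.18).

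Of the 10 members with the highest medians, the other 3 not yet described were Sobic.002G386500.v3.2 (median 273 FPKM, range 206 to 305), Sobic.004G253000.v3.2 (median 269.6, range 203 to 318) and Sobic.003G196800.v3.2 (median 268, range 227 to 362). All 3 had their highest mean in Callus II. The lowest mean was in Leaf for the first gene and in Callus III for both others.

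The members filled the range up to the limit without a gap. The ratio was at most 1.2 in 2 members, 1.3 in 19, 1.4 in 39 and 1.5 in 91, with a median of 1.48. Between 1.5 and 1.6 there were 68 members, and 92 abundant genes lay between 1.6 and 1.7. Nearest inside the limit were Sobic.002G308300.v3.2 (68.7 to 109.8 FPKM, ratio 1.599), Sobic.001G432000.v3.2 (45.8 to 73.3), Sobic.003G196800.v3.2, Sobic.006G273200.v3.2 (43.2 to 68.9) and Sobic.002G356400.v3.2 (66.2 to 105). Nearest outside were Sobic.007G106400.v3.2 (324 to 519 FPKM, ratio 1.6001), Sobic.002G394600.v3.2 (52.4 to 84.1), Sobic.009G139900.v3.2 (53.5 to 85.8), Sobic.009G257200.v3.2 (64.9 to 104) and Sobic.001G154400.v3.2 (74.7 to 119.9), the last of which overlaps another locus. At the limit of 30 FPKM, the lowest values just inside were 30.002 for Sobic.001G009300.v3.2, 30.1 for Sobic.010G187600.v3.2 and 30.4 for Sobic.003G262400.v3.2. Just outside were 29.9 for Sobic.004G242000.v3.2, 29.7 for Sobic.001G005900.v3.2 and 29.7 for Sobic.002G288200.v3.2. A ratio of at most 1.6 was also met by 341 of 3728 genes whose lowest value was 10 to 30 FPKM (9.15%), a share close to the 10.1% of the abundant genes.

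The rule limits how far the group means of a member can lie apart, so the following values describe the list and are not set against the other abundant genes as a result. The ratio of the highest to the lowest group mean had a median of 1.35 in the members and 2.29 in the other abundant genes. The ratio between the 2 replicates had a median of 1.06 in Leaf, 1.07 in Callus III, 1.05 in Callus II and 1.11 in Callus I for the members, against 1.07, 1.12, 1.08 and 1.18 in the same order for the other abundant genes. The ratio over the 4 group means was smaller than that of the widest replicate pair in 25 members (15.7%) and in 33 other abundant genes (2.33%).

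A moderated F test among the 4 groups (limma, Benjamini-Hochberg adjusted p under 0.05 over all 23166 genes tested) called 90 of 159 members (56.6%), where 93.9% of all genes tested were called. The members were chosen on these values, so nothing is read from the gap. At the smallest adjusted p stood Sobic.003G117800.v3.2 (chromosome 3, 10628012 to 10633314), with 0.0019 in limma. It had 48.1 and 48 FPKM in Leaf and 49.2 and 51.5 in Callus III, with Callus II at 61.6 and 62.7 next to Callus I at 39.6 and 40.3. Callus II was highest and Callus I lowest, with no overlap between tissues. At the other end, the adjusted p of Sobic.010G042800.v3.2 was 0.989 in limma. A member that was not called is not shown to be level. The count changed with the tissue from which a library was left out. It was lower without either library of Leaf, Callus III or Callus II, and higher without either library of Callus I. The share of all genes tested that were called moved the same way. In such fits the lone library of a group is assumed to vary like the others.

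With the deposited FPKM, Callus II was the tissue with the highest mean most often, and Callus III the one with the lowest. The highest mean was in Leaf for 47 members, in Callus III for 15, in Callus II for 64 and in Callus I for 33. The lowest was in Leaf for 45, in Callus III for 57, in Callus II for 22 and in Callus I for 35. Of the members, 40.3% had their highest mean in Callus II and 9.43% in Callus III. These shares were 36.8% and 9.65% of all genes above 0 in every library, and 45.1% and 9.18% of the other abundant genes. The lowest mean was in Leaf for 28.3% of the members, in Callus III for 35.8%, in Callus II for 13.8% and in Callus I for 22.0%. Of the genes above 0 in every library, it was in Leaf for 29.8%, in Callus III for 27.1%, in Callus II for 13.0% and in Callus I for 30.1%. For the other abundant genes it was in Leaf for 35.4%, in Callus III for 27.05%, in Callus II for 10.9% and in Callus I for 26.7%. These are the values the rule used, and the shares were not tested. By library, Callus II replicate 1 was the highest in 39 members and Leaf replicate 1 in 31, while Callus III replicate 1 was the lowest in 34 and Leaf replicate 2 in 29.

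This order depended on how the libraries were scaled. Median-ratio scaling, which sets the typical gene to no change, divided Leaf by 0.991 and 0.979, Callus III by 0.818 and 0.941, Callus II by 1.207 and 1.2025, and Callus I by 0.962 and 0.948. The members then had their highest mean in Leaf in 43 cases, in Callus III in 66, in Callus II in 4 and in Callus I in 46, and Callus II became the lowest tissue of 101. The highest mean was thus in Callus III for 41.5% of the members and in Callus II for 2.52%. These shares were 16.5% and 24.4% of all genes above 0 in every library, and 18.2% and 29.9% of the other abundant genes. Callus II was lowest in 63.5% of the members, against 23.4% of all genes above 0 in every library and 25.2% of the other abundant genes. For Callus III minus Callus II, the median log2 difference of the members was -0.16 with the deposited values (46 higher and 113 lower in Callus III) and 0.29 after scaling (146 higher and 13 lower). Over all genes tested it was -0.33 and 0. Upper-quartile scaling gave 0.23 and scaling to equal sums, with the 100 highest genes left out of the sums, 0.14. The factors apply alike to every gene, and the members were chosen to be near level in the deposited values. The sign change follows from the factors by construction, and no direction between Callus III and Callus II is read for the members.

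**Figure D3:**
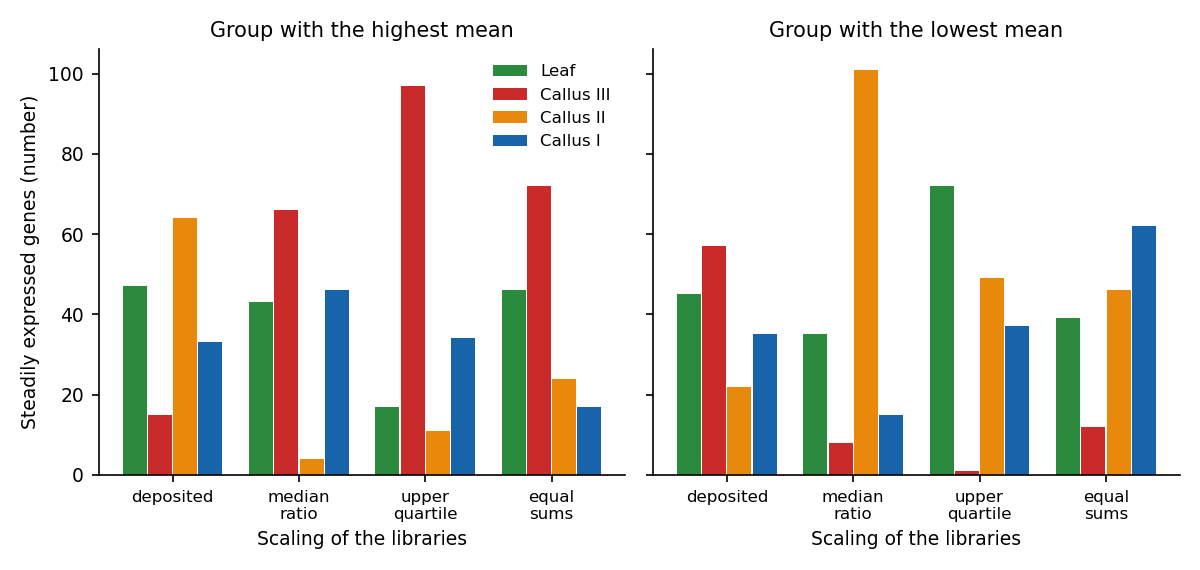
Number of the 159 steadily expressed genes whose highest (left) or lowest (right) group mean was in Leaf, Callus III, Callus II or Callus I, with the deposited FPKM and under 3 scalings of the libraries. With the deposited values Callus II is the highest tissue of 64 genes and Callus III of 15, and under median-ratio scaling of 4 and 66.

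Membership depended on the scaling as well. After median-ratio scaling 236 genes met the rule, of which 99 were members, which is 62.3% of the members and 42.0% of the scaled list. The other 60 members had a scaled ratio above 1.6 or fell under 30, and 11 members were under 30 in a scaled library. Callus II was the lowest tissue after scaling in 50 of those 60. The 137 genes that entered had been highest in Callus II in 113 cases and lowest in Callus III in 87 with the deposited values. Upper-quartile scaling shared 100 genes with the members out of 220, and equal sums 108 out of 217.

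A pair of members, chosen after their values were seen, shows both directions. Sobic.004G205000.v3.2 (chromosome 4, 55640128 to 55643970) showed 59.2 and 49.8 FPKM in Leaf and 67.7 and 61.6 in Callus III, with Callus II at 45.8 and 50.1 next to Callus I at 57.8 and 55.7, a ratio of 1.48 that became 2.18 after median-ratio scaling, the highest of any member. It was high in Callus III and low in Callus II, so dividing by the factors widened its range. Sobic.001G498400.v3.2 (chromosome 1, 76819249 to 76823665) showed 56.3 and 50.5 FPKM in Leaf and 44.1 and 47.5 in Callus III, with Callus II at 64 and 61.6 next to Callus I at 50.5 and 54.5. It was high in Callus II and low in Callus III, and its ratio of 1.45 became 1.14, the lowest of any member.

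**Figure D4:**
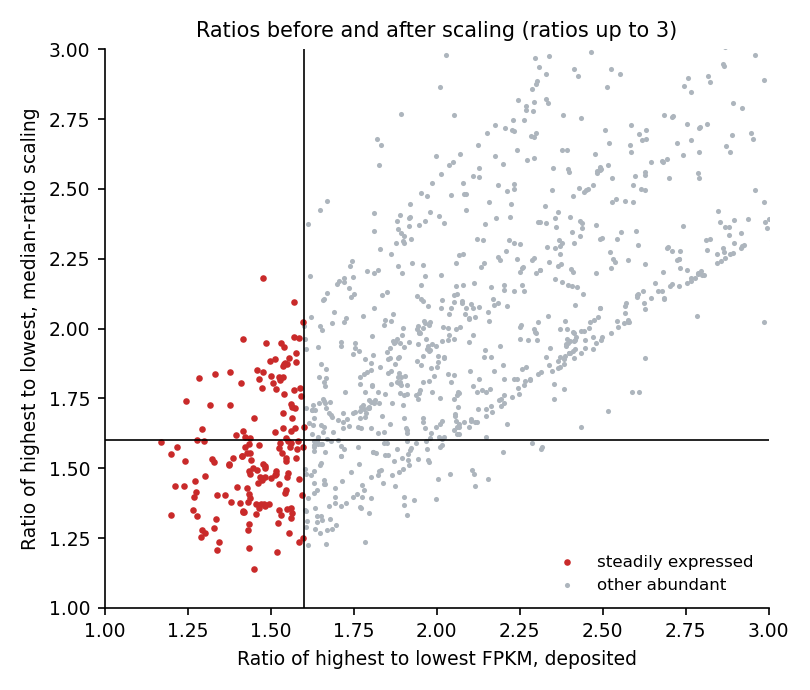
Ratio of highest to lowest value over the 8 libraries for abundant genes, with the deposited FPKM on the horizontal axis and after median-ratio scaling on the vertical axis, both linear and shown up to 3, with lines at 1.6. Of the 159 steadily expressed genes left of the vertical line, 99 still met the rule after scaling, and the ratios of the 159 ran from 1.14 to 2.18.

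The rule was met with the deposited values and with all 3 scalings by 74 members (46.5%). They included 9 of the steadiest 10, the exception being Sobic.007G126200.v3.2, whose ratio was 1.74 after median-ratio scaling. Genes with a low deposited ratio had more room under the limit, so nothing is read from this count. Some of these 9 stayed only just inside the limit. Their worst ratios over the 4 versions ran from 1.33 for Sobic.002G428200.v3.2 to 1.5996 for Sobic.002G309700.v3.2. The steadiest gene with the deposited values, Sobic.003G428200.v3.2, went from 1.17 to a worst ratio of 1.59, so the ranking by ratio depended on the scaling. The worst ratio over these 4 versions was at most 1.4 for 7 genes. This order was looked at after the values were seen. At its head were Sobic.010G278600.v3.2 (chromosome 10, 61094578 to 61099346) with a worst ratio of 1.33, at 47.7 and 48.5 FPKM in Leaf and 42.7 and 44.8 in Callus III, with Callus II at 50.2 and 52.8 next to Callus I at 40.9 and 47.3, and Sobic.002G401500.v3.2 (chromosome 2, 75193637 to 75204738, overlapping another locus) also with 1.33, at 52.4 and 55.3 FPKM in Leaf and 43.3 and 48.1 in Callus III, with Callus II at 55.3 and 51.3 next to Callus I at 47.9 and 53.8. Sobic.002G428200.v3.2, described above, had the same worst ratio. Sobic.009G033600.v3.2 (1.34) was the most abundant of the 7, and Sobic.009G232700.v3.2 (chromosome 9, 57243373 to 57245946) followed with 1.36, at 107 and 103 FPKM in Leaf and 104 and 101 in Callus III, with Callus II at 130.0 and 135 next to Callus I at 107 and 112. In the last gene both Callus II libraries were above the other 6. The 74 genes had a median level of 64.4 FPKM.

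Leaving out a whole tissue widened the list by similar amounts. Over the 6 libraries left, 402 genes met the rule without Leaf, 371 without Callus III, 385 without Callus II and 429 without Callus I. All of these lists hold the 159 members by construction.

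The members lay on longer loci than the other abundant genes. The rule set no limit on locus length, but FPKM is divided by transcript length, so the rule is not independent of length. The median locus length, introns included, was 4392 bp for the members, 3552 bp for the other abundant genes and 3762 bp for genes above 0 in all libraries. Of 60 abundant loci under 1000 bp, 1 was a member (1.67%), Sobic.001G432000.v3.2 at 541 bp, and of 350 loci of 2000 to 3000 bp, 23 were (6.57%). The share reached 18.0% (27 of 150) at 5000 to 6000 bp and was 13.0% (13 of 100) from 8000 bp. The share hardly moved with the lowest FPKM, at 8.93% to 11.7% over 7 classes. By median FPKM the members lay lower than the other abundant genes (middle values 60.8 and 82.5), which the rule itself favours. The rise with length was found in both of 2 classes of the lowest FPKM. Among genes with a lowest value of 30 to 50 FPKM, the share was 4.57% under 3000 bp, 10.8% at 3000 to 5000 bp and 14.9% from 5000 bp. Among those from 50 FPKM it was 5.93%, 10.97% and 16.7%. Replicate spread moved with length as well: the widest replicate pair of abundant genes had a median ratio of 1.28 under 3000 bp, 1.21 at 3000 to 5000 bp and 1.22 from 5000 bp. The ratio of group means was 2.77, 2.08 and 1.87 in the same classes. The part of replicate spread in the share of members was not tested. These are shares of genes in 1 set of libraries, given with no test.

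**Figure D5:**
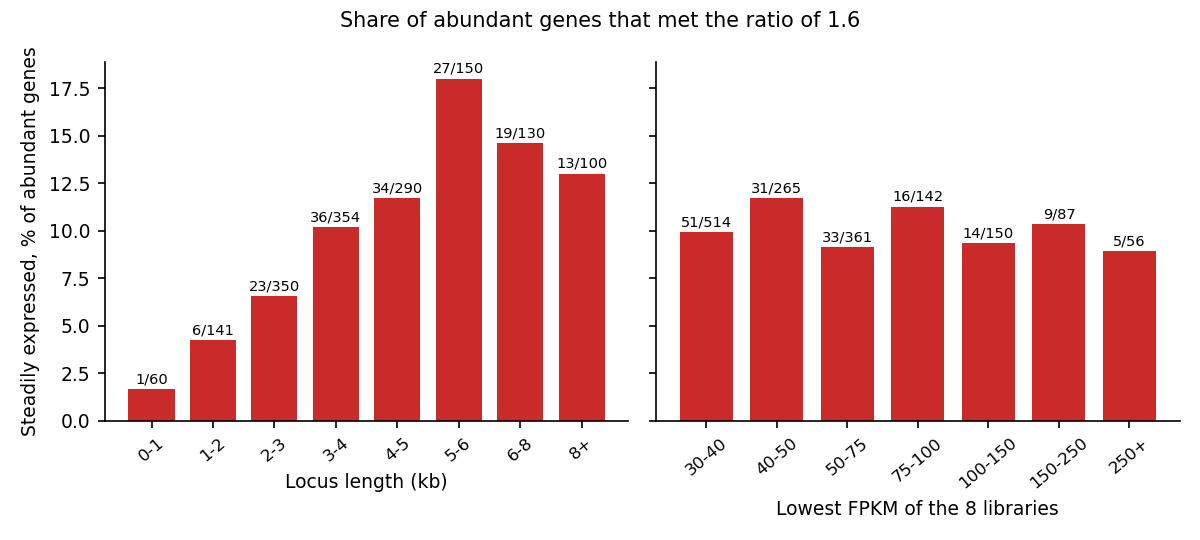
Percentage of abundant genes that met the ratio of 1.6, by locus length in kb (left) and by the lowest FPKM over the 8 libraries (right), with the number of members over the number of abundant genes above each bar. The share rises with length from 1.67% to 18.0% and then lies at 14.6% and 13.0%. It stays between 8.93% and 11.7% over the classes of the lowest FPKM.

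The longest member locus was Sobic.008G089700.v3.2 (chromosome 8, 32810818 to 32882137) at 71320 bp, which overlaps another locus. It had 40.6 and 35.2 FPKM in Leaf and 51.6 and 52.3 in Callus III, with Callus II at 49.7 and 38.9 next to Callus I at 35.9 and 41.4. Callus III was highest in both libraries. Loci that overlapped another numbered 15 of 159 members (9.43%), 116 of 1416 other abundant genes (8.19%) and 11.9% of all loci, and reads may be shared between such loci.

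The members came from all 10 chromosomes, and none of the 3 abundant genes on unplaced scaffolds was among them. There were 27 on chromosome 1, 23 on chromosome 2, 24 on chromosome 3, 23 on chromosome 4, 4 on chromosome 5, 9 on chromosome 6, 7 on chromosome 7, 11 on chromosome 8, 15 on chromosome 9 and 16 on chromosome 10. As a share of the abundant genes this was 15.9% (11 of 69) on chromosome 8 and 6.42% (7 of 109) on chromosome 7, with the other chromosomes between 8.26% and 11.4%. Chromosome 5 had the fewest members and also the fewest abundant genes, 44 of 2436 loci (1.81%), of which 9.09% were members. Most members lay towards chromosome ends: 129 of 159 (81.1%) were in the outer 20% at either end of their chromosome, as spanned by the loci, as were 82.0% of the other abundant genes and 76.8% of all loci on chromosomes.

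Of the members, 3 pairs were direct neighbours in the order of loci. No matching count was made for the other abundant genes or for all loci, so no clustering is read from these pairs. They were Sobic.003G012100.v3.2 with Sobic.003G012200.v3.2 on chromosome 3 (gap 10620 bp), Sobic.006G244700.v3.2 with Sobic.006G244800.v3.2 on chromosome 6 (gap 18088 bp), and Sobic.009G066900.v3.2 with Sobic.009G067000.v3.2 on chromosome 9 (gap 26726 bp). Their medians were 48.5 and 73.4 FPKM, 57.4 and 203 FPKM, and 72.1 and 73.4 FPKM. The last of these genes is one of the steadiest 10.

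The members held a small share of the FPKM sum, at 2.45% and 2.33% in Leaf and 1.86% and 1.95% in Callus III, with Callus II at 2.19% and 2.38% next to Callus I at 2.09% and 2.24%. The median FPKM of the members was 63.0 and 61.2 in Leaf and 58.0 and 59.3 in Callus III, with Callus II at 65.2 and 64.8 next to Callus I at 57.8 and 59.1. For the other abundant genes the same medians were 80.5 and 77.9, 75.3 and 81.0, 102 and 100.4, and 88.7 and 84.9 in the same order of tissues. The rule bears on this gap as well, and nothing is read from it.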

How the data were processed

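Transcripts were measured by RNA sequencing in 8 libraries, 2 in each of 4 groups taken from the sample titles. The authors deposited 1 table of FPKM per library, per the file headers. Tools listed by the submitters' processing notes are Trimmomatic, TopHat2 2.0 and Cuffdiff. What each was used for, the genome build and the use of strand are not stated there. The files were joined by identifier (Python 3.11.15, pandas 2.3.3). Locus starts were taken to count from 0, and printed starts have 1 added. After 1 was added, 884 equalled a gene start in the RefSeq table of assembly Sorghum_bicolor_NCBIv3, against 345 unchanged. Both are a small part of the 34129 loci, most of which matched no start either way. None of the 34129 identifiers matched that table's 32945 genes (0 matched), so planned gene lists and marker checks by gene name were not run.

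Log2(FPKM + 1) was modelled with limma 3.58.1 under R 4.3.3, using a mean for each group, a variance trend (prior degrees of freedom 2.83) and a moderated F test over the 23166 genes that reached 1 FPKM in 2 or more libraries. All 159 members passed this filter. The p-values rest on the spread between paired libraries, which may be partly technical. The fit was tested on simulated data. The members and lists were chosen with earlier results of these data known. The genes named were the 10 members with the lowest ratio, the 10 with the highest median FPKM, the 5 nearest to each side of the ratio of 1.6 and the 3 nearest to each side of 30 FPKM. The others named (the smallest p, the extremes after scaling, the top of the order over 4 scalings, the longest locus and neighbours) were chosen after their values were seen. Other thresholds, scalings, filters and pseudocounts, a replicate block and leaving out libraries were tried.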

Additional observations from a re-analysis of the deposited data

How the results depend on the processing

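The number of steadily expressed genes followed the thresholds: 39 with a ratio of at most 1.4, 494 with at most 2, 500 from 10 FPKM, 28 from 100 FPKM and 337 on group means in place of single libraries. It was 402, 371, 385 and 429 without the libraries of Leaf, Callus III, Callus II and Callus I, and 74 where the deposited values and all 3 scalings had to meet the rule (these 5 were added after the data were seen). Without each library in turn it was 174 to 217, always with all 159 members by construction, and 144 without overlapping loci.

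The tissue with the highest mean changed with scaling. Callus III had 66, 97 and 72 members with median-ratio, upper-quartile and equal-sum scaling (15 deposited), and Callus II had 4, 11 and 24 (64 deposited). Leaf had 17 with upper-quartile scaling (47 deposited) and Callus I 17 with equal sums (33 deposited). The factors apply alike to every gene, so these shifts follow from them by construction. Without each library in turn the counts were 42 to 53 in Leaf, 15 to 21 in Callus III, 58 to 68 in Callus II and 31 to 40 in Callus I.

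The F test called 75 to 102 members under 8 other settings (80.1% to 94.7% of all genes tested), against 90, and 38 to 109 without each library in turn (87.7% to 94.2% of all genes), where the lone library of a group is assumed to vary like the others. With the replicate number as a block it called 75. Over all genes tested, the difference between replicates 1 and 2 correlated between groups at -0.10 to 0.02, so the numbers are not taken to pair the libraries. Of 451 recomputed ratios of 41 named genes, 103 moved by more than 1 SD between replicates.

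Read totals are unknown, so no counting error is given.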
